A study of Mus musculus with 7 samples.

Results

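The genes described here are markers of the nonparenchymal cells of the liver, meaning every cell type other than the hepatocyte. They are 41 genes known to be made mainly by macrophages (12), endothelial cells (9), stellate and other mesenchymal cells (11), lymphocytes (7) or neutrophils (2). They were chosen by symbol to judge the cell makeup of the samples, with no threshold on their values. Of these, 40 were measured among 16819 genes, and Ms4a1 was not analysed here. The samples were whole livers of male Dicer1 fl/fl mice of mixed 129S4 and C57BL/6 background, so both Dicer1 alleles carried loxP sites in all groups, controls included. The study asked what happens in liver when hepatocytes lose Dicer1, the enzyme that cuts microRNA precursors. Mice aged 8 to 10 weeks were given AAV8-Ttr-Cre, a virus that brings the Cre recombinase under the transthyretin promoter, which is active in hepatocytes. The control group (0 weeks) held 3 arrays, and livers taken 2 and 4 weeks after the virus gave 2 arrays each, all from mice fasted for 4 hours. The labels name no virus for the controls, and none was taken at the later times, so Cre, virus and elapsed time cannot be told apart. The labels call the arrays biological replicates and do not say whether animals were pooled.

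Several cell types share the liver with its hepatocytes. Kupffer cells are the resident macrophages, which sit in the blood sinusoids and take up particles, dying cells and old red cells. The sinusoidal endothelium is a fenestrated, scavenging endothelium, and stellate cells lie behind it, store vitamin A as retinyl ester and, once activated, turn into contractile, collagen-making cells. Lymphocytes and neutrophils are fewer in a resting liver and enter it in inflammation. The virus is directed at hepatocytes, so the Dicer1 gene of these other cells was not its target.

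The values are log2 signals of Affymetrix whole-transcript arrays as deposited, with a scaling that the sources used here do not give. Array medians lay between 7.07 and 7.09, and the 12 hepatocyte markers read from 10.7 to 14.6 over the arrays. Dicer1 itself was lower on all 4 arrays after Cre (log2 difference -0.71, SE 0.07, adjusted p = 0.00675, limma). The table held no detection call, so 304 odorant and vomeronasal receptor genes, which liver is not known to express, served as a rough guide to signal without transcript. Their 95th percentile was 6.82. By this guide 32 of the 40 markers lay above the level of such genes, and 8 lay under it: Des, 5 of the 6 lymphocyte genes and both neutrophil genes. Probe sets differ in brightness, so the guide is approximate. Many deposited values repeat exactly from array to array, which 58.4% of all genes and 14 of the 40 markers show at least once. Des, Cd8a and Nkg7 had the same value on 4 arrays and S100a9 on 5, and nothing was read from their spread.

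Few of the markers passed the test for a difference after Cre. At 2 weeks 0 of 40 passed the test, where 5.93% of all genes did, 3.46% higher and 2.47% lower. An unadjusted p under 0.05 was found for 6 of the 40 markers and for 3862 of all 16819 genes, a larger share. At 4 weeks 1 of 40 passed, the endothelial gene Clec4g, where 9.77% of all genes did, 5.15% higher and 4.62% lower. Over both times together, called after Cre below, 2 of 40 passed, the stellate genes Pdgfrb and Hgf, where 12.9% of all genes did, 6.79% higher and 6.12% lower. All 3 were higher. With all arrays the share of markers called lay below that of all genes in each of these comparisons. The share of all genes itself moved with the arrays used: leaving out 1 array gave 0.244% to 12.9% at 2 weeks, 0.375% to 11.6% at 4 weeks and 3.39% to 16.6% after Cre. The lowest of these were without control replicate 3, Cre 4 wk replicate 1 and control replicate 2. Without Cre 2 wk replicate 2 the markers called at 2 weeks, 1 of 40, were a larger share than the 1.96% of all genes. Between 4 and 2 weeks 0 of 40 passed, as against 0.00595% of all genes. An unadjusted p under 0.05 was found there for 3 of 40 markers and 1250 of the 16819 genes. At 4 weeks it was found for 5 of 40 and 4169 genes, and after Cre for 5 of 40 and 4609 genes. Counts at an unadjusted p given below are to be read beside these. The 4 week arrays lay above both 2 week arrays for 5 of 40 markers and below them for 3, as they did for 15% and 11.6% of all genes. The test was limma's, two-sided, with Benjamini-Hochberg adjustment over all genes and an adjusted p under 0.05 as the threshold. The comparisons with control share the 3 control arrays and are given side by side, not as independent evidence. In bulk tissue, fewer cells of a type and less RNA per cell cannot be told apart.

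**Figure D1:**
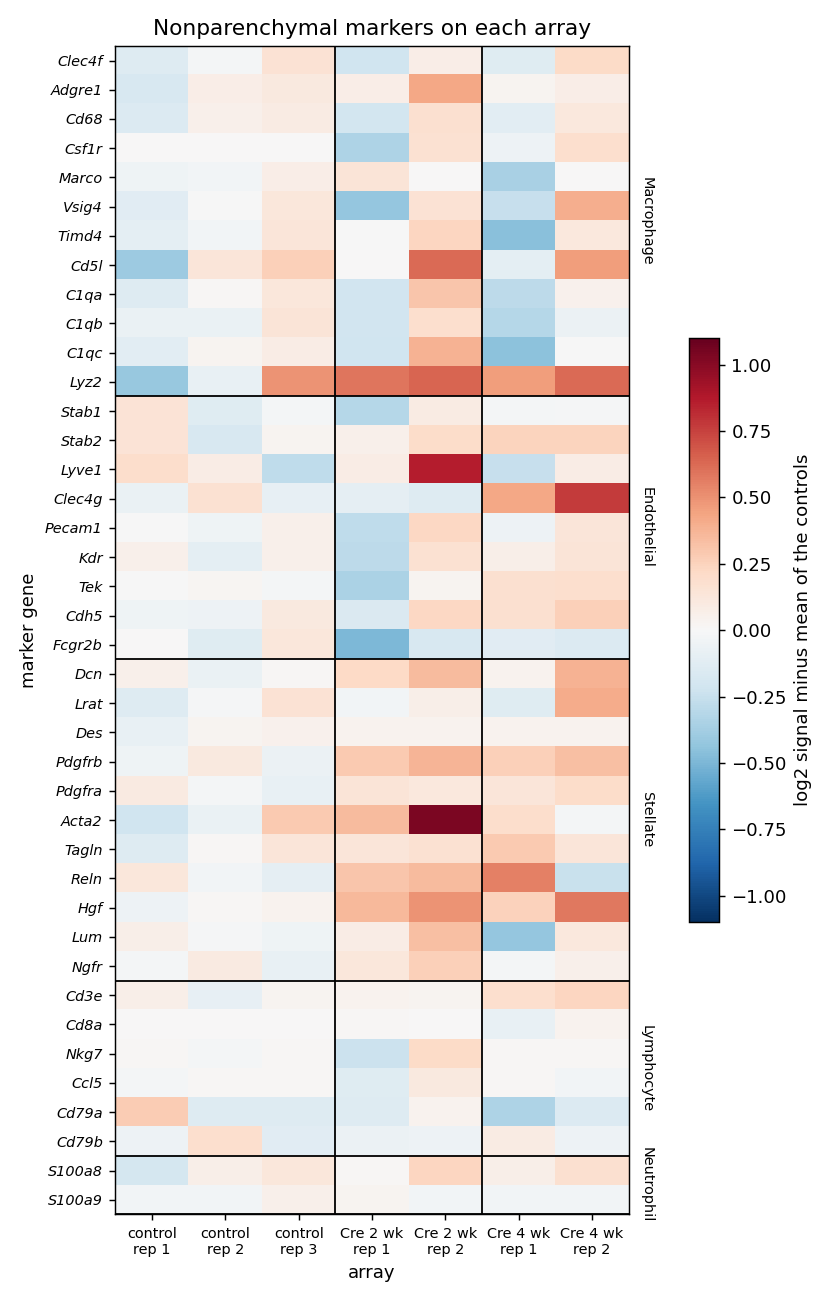
Log2 signal of each of the 40 measured markers (rows, grouped by cell type) on each of the 7 arrays (columns), minus the mean of the 3 control arrays of that gene; red is above and blue below the controls. Most macrophage genes read higher on replicate 2 than on replicate 1 of each Cre group, while Pdgfrb and Hgf are red on all 4 arrays after Cre.

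None of the macrophage markers passed the test at either time. Of 12, 0 were called higher or lower at 2 weeks, at 4 weeks or over both times (limma; 0, 0 and 1 at an unadjusted p under 0.05, the 1 being Lyz2). Their median log2 difference was 0.06 at 2 weeks, 0.02 at 4 weeks and -0.02 over both times, beside medians of -0.00, 0.01 and 0.00 for all genes. Clec4f, a lectin that in mice marks Kupffer cells, read 9.30, 9.42 and 9.60 in controls, 9.23 and 9.52 at 2 weeks, and 9.31 and 9.65 at 4 weeks. Arrays of each time lay on both sides of the control mean. Its difference after Cre was -0.02, with a 95% interval from -0.33 to 0.30.

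Other genes of resident Kupffer cells showed the same overlap with the controls. Vsig4, a receptor for complement fragments, read 9.20, 9.32 and 9.45 in controls, 8.90 and 9.48 at 2 weeks, and 9.07 and 9.73 at 4 weeks. Timd4, which binds phosphatidylserine on dying cells, read 7.68, 7.76 and 7.92 in controls, 7.78 and 8.02 at 2 weeks, and 7.33 and 7.91 at 4 weeks. Marco, a scavenger receptor, differed by -0.05 after Cre (interval -0.29 to 0.19). The secreted protein gene Cd5l varied more than these: it read 8.45, 8.98 and 9.11 in the controls alone, then 8.85 and 9.46 at 2 weeks and 8.73 and 9.30 at 4 weeks. Its interval after Cre, -0.38 to 0.86, therefore leaves room for changes that these arrays could not show.

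Markers shared by macrophages in general also overlapped with the controls. Csf1r, the receptor for the macrophage growth factor Csf1, read 8.51 and 9.02 at 2 weeks, and 8.79 and 9.03 at 4 weeks. Its 3 controls held the identical deposited value of 8.85, so their agreement is no measure of spread. Cd68, a lysosomal membrane protein, differed by -0.01 after Cre (interval -0.30 to 0.29). Adgre1, which encodes the F4/80 antigen, read 7.95, 8.21 and 8.24 in controls, 8.21 and 8.56 at 2 weeks and 8.16 and 8.21 at 4 weeks, a difference of 0.15 after Cre (interval -0.12 to 0.42). For 8 of the 12 macrophage genes the interval after Cre lay within 0.5 log2 units on either side of 0, and for 11 within 1.

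The 3 chains of complement C1q are made by the neighbouring genes C1qa, C1qc and C1qb on chromosome 4. C1qa read 8.84, 8.99 and 9.10 in controls, 8.76 and 9.28 at 2 weeks, and 8.69 and 9.02 at 4 weeks. C1qb read 9.02, 9.02 and 9.24, then 8.88 and 9.28, then 8.78 and 9.03 on the same arrays, and C1qc 8.69, 8.84 and 8.89, then 8.59 and 9.19, then 8.35 and 8.80. All 3 were lowest on Cre 4 wk replicate 1 and highest on Cre 2 wk replicate 2. Their differences after Cre were -0.04, -0.10 and -0.07, with adjusted p-values of 0.904, 0.641 and 0.835.

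The letters before the start sites of C1qb, C1qc, Vsig4 and Clec4f are shown as examples of the macrophage markers, which nearly all read in the same order on the arrays of a group whether or not the window holds a match. They are printed with matches to GAGGAA, the core letters of sites bound by the macrophage transcription factor PU.1, in capitals (TTCCTC where the match is on the other strand). Each stretch is the 250 bases upstream of the start site in RefSeq, build GRCm38.p6, read 5′ to 3′ along the gene's strand.
C1qb (chr4:136886201-136886450, minus strand): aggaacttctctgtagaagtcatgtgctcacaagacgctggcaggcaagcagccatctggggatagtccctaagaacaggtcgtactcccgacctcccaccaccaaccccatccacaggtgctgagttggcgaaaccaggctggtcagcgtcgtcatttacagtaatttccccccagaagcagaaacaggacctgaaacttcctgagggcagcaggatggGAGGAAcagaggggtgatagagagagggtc
C1qc (chr4:136892915-136893164, minus strand): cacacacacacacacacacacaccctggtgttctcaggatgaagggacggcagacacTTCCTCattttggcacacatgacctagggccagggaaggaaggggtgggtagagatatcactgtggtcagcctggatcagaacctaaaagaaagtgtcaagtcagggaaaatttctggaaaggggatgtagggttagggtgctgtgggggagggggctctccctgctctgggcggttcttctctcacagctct
Vsig4 (chrX:96293439-96293688, minus strand): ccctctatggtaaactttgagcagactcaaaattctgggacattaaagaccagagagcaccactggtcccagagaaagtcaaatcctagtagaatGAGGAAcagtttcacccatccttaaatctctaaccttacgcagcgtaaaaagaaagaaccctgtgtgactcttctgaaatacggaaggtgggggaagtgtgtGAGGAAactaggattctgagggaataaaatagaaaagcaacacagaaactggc
Clec4f (chr6:83656117-83656366, minus strand): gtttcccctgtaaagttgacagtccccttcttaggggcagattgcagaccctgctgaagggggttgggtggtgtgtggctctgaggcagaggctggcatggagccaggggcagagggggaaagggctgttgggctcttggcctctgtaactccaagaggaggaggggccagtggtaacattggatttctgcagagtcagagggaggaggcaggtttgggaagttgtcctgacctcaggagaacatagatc
C1qb and C1qc hold 1 match each, Vsig4 2 and Clec4f 0. Of the 9 macrophage markers with a promoter in the RefSeq table, 6 hold a match on either strand, as do 23.3% of all 32851 promoters of the same length. Of the lymphocyte markers 3 of 4 do, of the endothelial 1 of 6, of the stellate 2 of 7 and of the neutrophil 1 of 2. A match is a run of letters in this window and no more, and the arrays hold no measure of binding.

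Lyz2, the lysozyme of macrophages and other myeloid cells, was the exception in size. It read 8.39, 8.72 and 9.30 in controls, 9.39 and 9.44 at 2 weeks, and 9.26 and 9.43 at 4 weeks. Control arrays spread by more than the difference between groups, and control replicate 3 lay within the range of the arrays after Cre. The difference after Cre was 0.58 (SE 0.21, adjusted p = 0.153, limma), which did not pass. Without control replicate 3 it was 0.82 (adjusted p = 0.0447), so Lyz2 was called only when that array was left out.

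Macrophage genes fell in the same order between the arrays of a group. At 2 weeks replicate 2 read higher than replicate 1 for 11 of 12 genes, by a median of 0.38, and at 4 weeks for 12 of 12, by a median of 0.34. Among all genes replicate 2 read higher in 42.6% at 2 weeks and in 44.6% at 4 weeks, and lower in 47.1% and 42.7%. The mean of the 12 genes, relative to the control mean, was -0.16, 0.01 and 0.15 in the controls, -0.08 and 0.28 at 2 weeks, and -0.17 and 0.18 at 4 weeks. Their summed linear signal ran from 4582 to 5723 in controls, and was 4763 and 6273 at 2 weeks and 4636 and 5946 at 4 weeks. Spread within each group was thus wider than any difference between group means. At 2 weeks the sign of the median followed which array was kept, being -0.21 without replicate 2. The largest difference after Cre among the macrophage markers was the 0.58 of Lyz2. Lpl, which Kupffer cells also make, differed by 2.61 after Cre (SE 0.39, adjusted p = 0.0153, limma). It read 9.11 and 10.80 at 2 weeks and 9.54 and 9.84 at 4 weeks, so replicate 2 was again the higher. Which cells the Lpl signal came from was not tested.

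**Figure D2:**
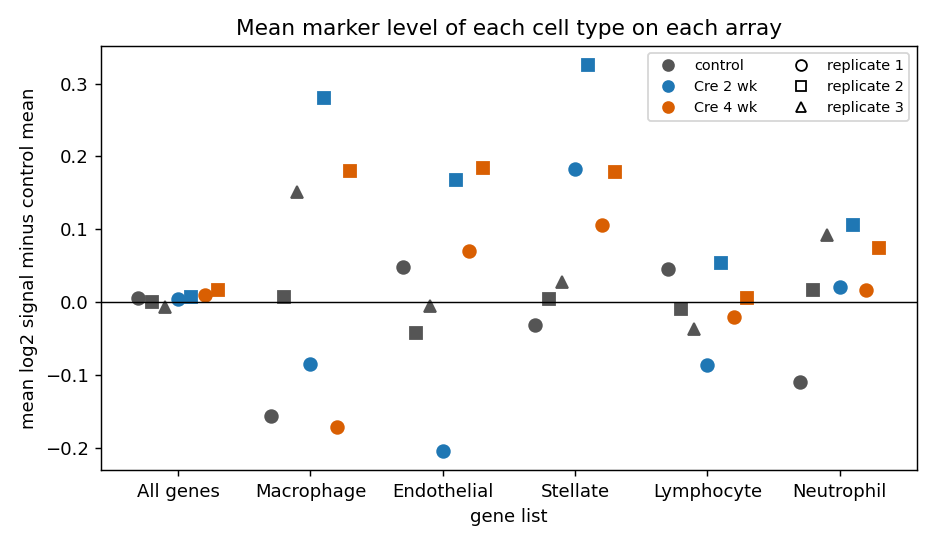
Mean log2 signal of the markers of each cell type on each array, minus the mean of the controls (vertical axis), with all 16819 genes at the left; colour gives the group and symbol shape the replicate. Macrophage points spread from -0.17 to 0.28 with both Cre groups on either side of 0, and the stellate points of the 4 arrays after Cre lie between 0.11 and 0.33, above the controls.

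A further 21 macrophage genes, not among the markers above, held 1 call. The only 1 of 21 called was Slc40a1, with 0 called lower. Of all genes 9.77% were called at 4 weeks and 12.9% after Cre. It encodes the iron exporter ferroportin and is expressed by hepatocytes as well as Kupffer cells. It read 11.39, 11.33 and 11.51 in controls, 11.91 and 12.45 at 2 weeks and 12.56 and 12.62 at 4 weeks, with no overlap between controls and either time. It was 2.27-fold higher at 4 weeks (log2 difference 1.18, SE 0.16, adjusted p = 0.0168) and at 0.77 at 2 weeks (adjusted p = 0.0534). The pore-forming protein gene Mpeg1 was at -0.70 after Cre (SE 0.21, adjusted p = 0.0959), the farthest from 0 of the rest. Cd163, a scavenger receptor for haemoglobin bound to haptoglobin, read 8.82, 8.50 and 8.47 in controls, 8.06 and 8.33 at 2 weeks and 7.96 and 8.24 at 4 weeks, a difference of -0.45 after Cre (SE 0.13, adjusted p = 0.0775). Mpeg1 and Cd163 lay below all controls on all 4 arrays after Cre without passing the test, a separation found in 0 of the 12 markers above and in 12.2% of all genes. After Cre 4 of the 21 had an unadjusted p under 0.05, as had 4609 of all 16819 genes, and the median of the 21 was 0.04. Of 5 measured genes of lipid-associated macrophages, 0 were called in any comparison (limma; 0 at an unadjusted p under 0.05 in each comparison with control). Of the 5, 2 lay under the sensory receptor level. Cd9 was at 0.16 after Cre (adjusted p = 0.609).

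Of the 9 endothelial markers, 1 passed the test at 4 weeks and 0 at 2 weeks, beside 9.77% and 5.93% of all genes. Clec4g, a lectin of the sinusoidal endothelium, was 1.51-fold higher at 4 weeks (log2 difference 0.60, SE 0.13, adjusted p = 0.0438, limma, n = 3 and 2). It read 10.89, 11.13 and 10.87 in controls, 10.86 and 10.82 at 2 weeks, and 11.39 and 11.74 at 4 weeks. Those of 4 weeks lay above all controls and the 2 week arrays just below them. Between the times it differed by 0.72 (SE 0.14, adjusted p = 0.381), which did not pass. Clec4g is the 1 marker with more than 1 probe set. The dimmer one, at 5.04 to 5.77 and so under the level of the sensory receptor genes, differed by 0.15 at 2 weeks, where the brighter one was at -0.12, and by 0.24 at 4 weeks. With their mean the 4 week difference was 0.42 (adjusted p = 0.096). The call was also lost without any 1 of the 7 arrays, with adjusted p-values from 0.0733 to 0.162 and differences from 0.42 to 0.77.

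The remaining 8 endothelial markers were not called at any time. The scavenger receptor genes Stab1 and Stab2 differed by -0.07 and 0.19 after Cre, with intervals from -0.35 to 0.22 and from -0.03 to 0.40. Stab2 read 9.72, 9.40 and 9.61 in controls, 9.64 and 9.78 at 2 weeks, and 9.82 and 9.82 at 4 weeks, so both 4 week arrays and Cre 2 wk replicate 2 lay above all controls. Kdr, the main receptor for vascular endothelial growth factor, was at 0.02, and Tek, the angiopoietin receptor, at 0.01. The junction genes Pecam1 and Cdh5 were at 0.01 and 0.13. At 4 weeks 5 of 9 endothelial genes, namely Clec4g, Stab2, Kdr, Tek and Cdh5, had both arrays above all controls, as did 21.6% of all genes, and 0 had both below, as against 18.2%.

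Tek, though not called, had arrays close together within the controls and at 4 weeks. It read 8.34, 8.36 and 8.33 in controls, 8.00 and 8.38 at 2 weeks and 8.52 and 8.53 at 4 weeks. Its 4 week difference of 0.18 had an adjusted p of 0.382 with all arrays and of 0.0294 in the fit of the 4 week arrays and controls alone. Lyve1, a hyaluronan receptor, varied most in this list: 7.92, 7.81 and 7.44 in controls, 7.81 and 8.59 at 2 weeks, and 7.47 and 7.81 at 4 weeks. Fcgr2b, the inhibitory receptor for immunoglobulin G, read 9.35, 9.21 and 9.46 in controls, 8.84 and 9.16 at 2 weeks, and 9.21 and 9.19 at 4 weeks. Both 2 week arrays were below all controls, and the difference of -0.33 had an adjusted p of 0.164.

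At 2 weeks the endothelial median rested on the choice of array as well. The mean of the 9 genes was -0.20 on replicate 1 and 0.17 on replicate 2, against -0.04 to 0.05 in the controls, and 0.07 and 0.18 at 4 weeks. The median difference was -0.06 at 2 weeks with both arrays, 0.17 without replicate 1 and -0.28 without replicate 2. Replicate 2 read higher for 8 of 9 genes at 2 weeks and for 8 of 9 at 4 weeks. Of 26 other endothelial genes, 0 were called at 2 weeks, 4 weeks or over both times (limma; 3, 3 and 4 at an unadjusted p under 0.05), with a median of -0.01 after Cre. At 4 weeks 6 of the 26 had both arrays above all controls and 1 had both below, beside 21.6% and 18.2% of all genes. F8, which encodes coagulation factor VIII, lay farthest from 0 among them, at 0.45 for 4 against 2 weeks (adjusted p = 0.621).

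The stellate and mesenchymal genes gave the 2 calls over both times, 2 of 11 beside 12.9% of all genes. Pdgfrb, the receptor through which platelet-derived growth factor acts on stellate cells, was 1.24-fold higher after Cre (log2 difference 0.31, SE 0.06, adjusted p = 0.0238, limma, n = 3 and 4). It read 7.54, 7.70 and 7.53 in controls, 7.88 and 7.97 at 2 weeks, and 7.85 and 7.92 at 4 weeks. All 4 arrays after Cre lay above all controls. Taken by time, the difference was 0.33 at 2 weeks (adjusted p = 0.0504) and 0.29 at 4 weeks (adjusted p = 0.0535), each just short of the threshold. Its neighbour on chromosome 18, with no protein-coding gene between, is the macrophage gene Csf1r, which was at -0.01 after Cre.

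Hgf encodes hepatocyte growth factor, which stellate cells make and hepatocytes receive through the receptor Met. It was 1.34-fold higher after Cre (log2 difference 0.42, SE 0.09, adjusted p = 0.0338). The controls read 8.21, 8.28 and 8.31, the 2 week arrays 8.62 and 8.76, and the 4 week arrays 8.52 and 8.84, with no overlap. The difference was 0.42 at 2 weeks (adjusted p = 0.0761) and 0.42 at 4 weeks (adjusted p = 0.0663). Both calls were lost when some single arrays were left out. The adjusted p of Pdgfrb was 0.0846 without control replicate 1, 0.0924 without control replicate 3, 0.0631 without Cre 2 wk replicate 2, and 0.0682 and 0.0841 without Cre 4 wk replicate 1 or 2. That of Hgf was 0.117, 0.115 and 0.109 without control replicate 1, 2 or 3, 0.0538 and 0.0978 without Cre 2 wk replicate 1 or 2, and 0.0511 without Cre 4 wk replicate 2. The differences themselves stayed between 0.28 and 0.37 for Pdgfrb and between 0.34 and 0.50 for Hgf.

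**Figure D3:**
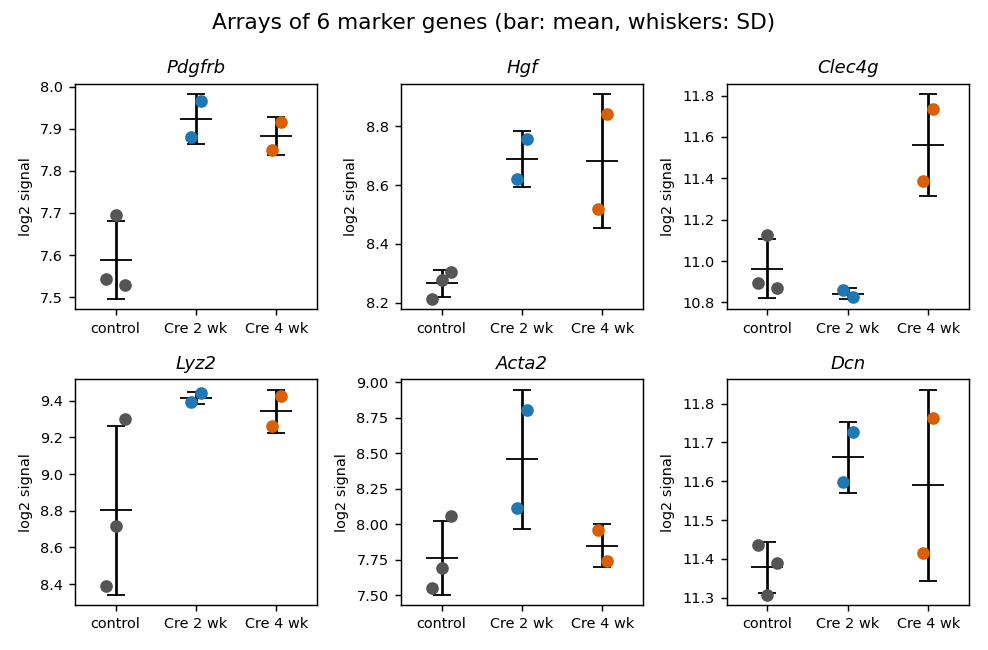
Log2 signal (vertical axes, each with its own range) of 6 markers on the control, 2 week and 4 week arrays; points are arrays, horizontal bars group means and whiskers the SD. Pdgfrb and Hgf lie above the controls on all 4 arrays after Cre, Clec4g at 4 weeks only, and the controls of Lyz2 span from 8.39 to 9.30.

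The other 9 stellate genes were not called. Pdgfra, the second receptor for platelet-derived growth factor, read 7.62, 7.50 and 7.43 in controls, 7.66 and 7.63 at 2 weeks and 7.65 and 7.72 at 4 weeks. Pdgfra was the third marker whose arrays after Cre all lay above the controls, with a difference of 0.15 (SE 0.05, adjusted p = 0.147). Such a separation was found in 3 of 40 markers upward, as in 12.9% of all genes, and in 0 of 40 downward, as against 12.2%. Dcn, which encodes the matrix proteoglycan decorin, read 11.44, 11.31 and 11.39 in controls, 11.60 and 11.73 at 2 weeks, and 11.42 and 11.76 at 4 weeks. Its difference after Cre was 0.25 (adjusted p = 0.159). Its neighbour Lum, encoding the related proteoglycan lumican, was at 0.03 (adjusted p = 0.932) and read 7.43 and 7.97 at 4 weeks, so the neighbours did not move alike on Cre 4 wk replicate 1.

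Acta2, Tagln and Des, which encode contractile and filament proteins, showed no call. Acta2, smooth muscle actin, read 7.55, 7.69 and 8.06 in controls, 8.11 and 8.81 at 2 weeks, and 7.96 and 7.74 at 4 weeks. Both 2 week arrays were above the controls and the 4 week arrays were among them, with differences of 0.69 (SE 0.24, adjusted p = 0.169) and 0.08 (adjusted p = 0.886). Tagln, an actin-binding protein of contractile cells, was at 0.18 after Cre (adjusted p = 0.211). Des, the intermediate filament desmin, was at 0.04, near the level of the sensory receptor genes. Among genes of the quiescent cell, Lrat, which esterifies retinol for storage, was at 0.08 (interval -0.28 to 0.44). Reln, encoding the secreted glycoprotein reelin, read 9.50, 9.35 and 9.28 in controls, 9.69 and 9.73 at 2 weeks, and 9.93 and 9.14 at 4 weeks, where its arrays lay on either side of the controls. Ngfr, a neurotrophin receptor not assigned to either state here, was at 0.10 (interval -0.05 to 0.26).

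As a group the 11 stellate genes all had a difference above 0 after Cre, with a median of 0.18. Among all genes 51.0% were above 0 and the median was 0.00. The mean of the 11 lay between -0.03 and 0.03 in controls and was 0.18 and 0.33 at 2 weeks and 0.11 and 0.18 at 4 weeks. Their summed linear signal ran from 5035 to 5257 in controls and was 6000 and 6624 at 2 weeks and 5627 and 6215 at 4 weeks. These are descriptions of a short list, with no test over it. Beside them, the 12 hepatocyte markers had means of 0.08 to 0.17 on the 4 arrays after Cre, with medians of -0.01 to 0.02. Their median difference was 0.00, and the highest was the 1.67 of Fga. Of the 12, 3 were called higher after Cre (limma), where 6.79% of all genes were. The fibrinogen chain Fga was at 1.67 (SE 0.09, adjusted p = 0.00204), from the brighter of its 2 probe sets. The fibrinogen chain Fgb was at 0.22 (adjusted p = 0.0354) and the transferrin gene Trf at 0.18 (adjusted p = 0.0317). Glul, glutamine synthetase, was at -0.53 after Cre (adjusted p = 0.37).

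Of 25 other stellate and mesenchymal genes, 1 was called higher and 0 lower after Cre, beside 6.79% and 6.12% of all genes. Their median was 0.08, with 17 of 25 above 0. The 1 was the chemokine gene Cxcl12, at 0.51 (SE 0.09, adjusted p = 0.0233), which read 10.48, 10.77 and 10.67 in controls, 10.96 and 11.05 at 2 weeks and 11.41 and 11.18 at 4 weeks. Cxcl12 is also expressed by endothelial cells. The collagen gene Col3a1 was at 0.43 (SE 0.12, adjusted p = 0.0861), short of the threshold. Of 5 measured bile duct genes, 4 lay under the sensory receptor level. Of the 5, 1 was called higher, as were 6.79% of all genes: Sox9, a transcription factor of bile duct and progenitor cells. It was at 0.37 after Cre (SE 0.07, adjusted p = 0.0298, limma), and the bile duct keratin gene Krt19 was at 0.09.

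**Figure D4:**
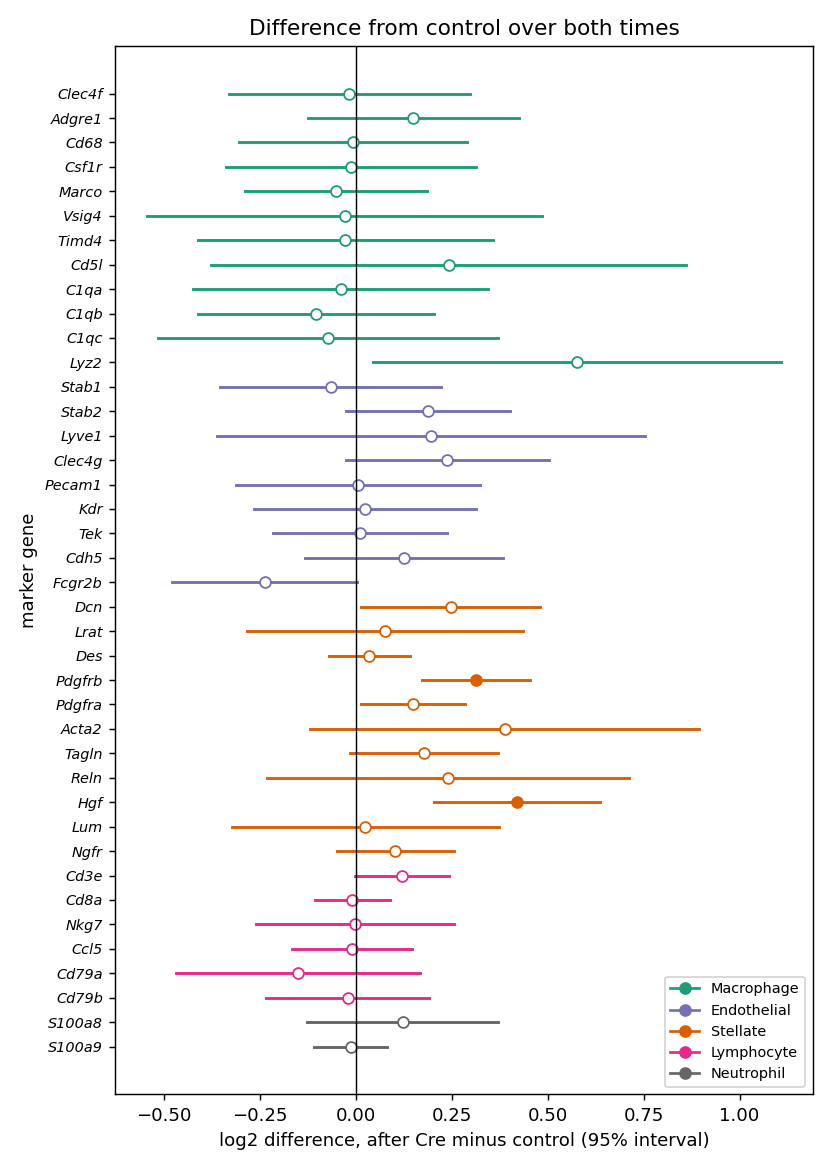
Log2 difference between the 4 arrays after Cre and the 3 controls for each marker (points) with its 95% interval from the limma fit (lines); colours give the cell type and filled points passed the adjusted p of 0.05. Only Pdgfrb and Hgf are filled, and most macrophage intervals reach to both sides of 0.

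Lymphocyte and neutrophil markers passed no test, and 7 of the 8 had signals under the level of the sensory receptor genes. Of 6 measured lymphocyte genes, 0 were called in any of the 4 comparisons, with 1 at an unadjusted p under 0.05 at 4 weeks and 1 between 4 and 2 weeks (limma). Both times it was Cd3e, a chain of the T cell receptor complex, which read 6.61, 6.45 and 6.57 in controls, 6.58 and 6.57 at 2 weeks, and 6.73 and 6.78 at 4 weeks (difference 0.21 at 4 weeks, adjusted p = 0.0865). Ccl5, a chemokine of T and natural killer cells, was the 1 lymphocyte gene above the guide level, and read from 7.10 to 7.34 over the 7 arrays, with a difference of -0.01 after Cre. Cd8a, of cytotoxic T cells, and Nkg7, of cytotoxic granules, differed by -0.01 and -0.00. The B cell receptor chains Cd79a and Cd79b differed by -0.15 and -0.02. The neutrophil genes S100a8 and S100a9, which encode the 2 chains of calprotectin, differed by 0.12 (interval -0.13 to 0.37) and -0.01. Of the other lists, 17 of 17 lymphocyte and 8 of 8 neutrophil genes also lay under the guide level, and 0 of either were called (limma; 1 and 1 at an unadjusted p under 0.05 after Cre). Those farthest from 0 were Cxcr6, a chemokine receptor of T cells, at 0.25 at 2 weeks (adjusted p = 0.223), and Camp, of neutrophil granules, at 0.32 at 4 weeks (adjusted p = 0.197). At such signals no difference was detectable, which does not show that these cells were unaltered in number.

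Some genes of antigen presentation read apart on the 2 week arrays. Of 12 dendritic cell and MHC class II genes, 0 were called in any comparison (limma; 0 at an unadjusted p under 0.05). H2-Aa, a class II chain, read 8.64, 8.82 and 8.49 in controls, 8.27 and 9.44 at 2 weeks, and 8.73 and 8.71 at 4 weeks. H2-Ab1 read 8.50 and 9.51, and Cd74, the invariant chain, 8.12 and 9.19 at 2 weeks, against 8.33 to 8.84 for Cd74 in controls. Replicate 1 was below and replicate 2 above all controls for each of these 3 genes, of which H2-Aa and Cd74 were picked after their values were seen, and their means at 2 weeks therefore stayed near control, at 0.21, 0.10 and 0.08. Over the whole list 7 of 12 read higher on replicate 2 and 4 on replicate 1 at 2 weeks, and 5 and 6 at 4 weeks, so the order did not hold for the list. Red cell and platelet genes (4 measured) had 0 calls. The platelet chemokine gene Ppbp read 6.17, 6.46 and 6.12 in controls, 6.80 and 7.09 at 2 weeks and 6.96 and 6.25 at 4 weeks (0.52 after Cre, adjusted p = 0.153). Of 4 proliferation genes 0 were called, with Mki67 at 0.42 at 4 weeks (adjusted p = 0.242). All 4 lay under the sensory receptor level, so little can be read from them. So did 7 of the 12 dendritic cell and class II genes and 2 of the 4 red cell and platelet genes. All controls of Ppbp read under that level. What part the differences between replicates described here have in the calls above was not tested.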

How the data were processed

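The deposited table holds log2 signals, 1 per probe set and array, made by the authors from Affymetrix whole-transcript arrays. The scale was read from the values (3.15 to 14.7). Per the submitters' processing notes GCOS 1.4 was used, for a step they do not specify; summarisation and normalization were not given in the sources used here. Of 21093 probe sets, 17709 had 1 gene symbol in the platform annotation, 187 several and 3197 were unnamed here. Per gene the probe set with the highest mean was kept, giving 16819 genes.

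Values were used as deposited, with no further scaling or filter. limma 3.58.1 (R 4.3.3) fitted 3 groups over all 7 arrays, with 4 residual and 1.69 prior degrees of freedom. The fit was checked on simulated data with independent normal noise, for the direction of planted changes. That noise held no shifts shared between genes and no repeated values, so the check does not bear on the calls here. The 41 markers and the 11 further lists (165 entries, 139 measured), as well as the rule for named genes, were chosen with earlier results of these data known. All markers were described. In each further list up to 3 passing genes with the smallest adjusted p and the 1 other gene with the largest difference in any comparison were named. H2-Aa, Cd74, Cd163 and Lpl were named after their values were seen, as were the 6 plotted markers. Alternatives were 2 scalings, a level filter, probe set means, fits of 2 groups, an intensity trend, a replicate block and leaving out each array. The number of arrays (3, 2 and 2) limits the precision, and p-values measure the spread between these arrays.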

Additional observations from a re-analysis of the deposited data

How the results depend on the processing

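With 2 or 3 arrays a group, small differences cannot be shown, and the table gives no background measure beyond the sensory receptor guide. Over 14 alternatives, 2173 of 2208 marker values kept direction and side of the threshold, counting as kept 166 of 2154 uncalled values that changed sign while uncalled. Of the others 23 lost the call, 11 gained it and 1 reversed: Nkg7 at 2 weeks, at 0.21 (adjusted p = 0.034, limma) without Cre 2 wk replicate 1, against -0.01 with all arrays and -0.23 without Cre 2 wk replicate 2. Both rest on 1 array at 2 weeks, which the fit assumes to vary like the other groups, where Nkg7 has the same value on 4 arrays, so they show no reversal. The call of Tek at 2 weeks without Cre 2 wk replicate 2 (-0.35, adjusted p = 0.0412) rests on 1 array in the same way.

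Markers called at 2 weeks numbered 1 with arrays centred on their medians, as against 0, where 7.03% of all genes were called. They numbered 2 among genes above the sensory receptor level, where 32 markers were tested and 16.4% of those genes were called. With single control arrays left out they numbered 0, where 0.244% to 1.13% of all genes were called. At 4 weeks, as against 1, they numbered 2 with quantile normalization (10.7% of all genes) and 0 with the mean of probe sets (9.73%). Above the sensory receptor level they numbered 3 of 32 (22.0% of the genes tested). With single control arrays left out they numbered 0 (1.75% to 2.72% of all genes). In the fit of controls and 4 weeks alone, which called 11.6% of all genes, the 1 marker called was Tek, not Clec4g. After Cre they numbered 0 to 1 with single arrays left out, as against 2.

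Leaving out single arrays moved the 2 week medians of macrophage genes from -0.21 to 0.21, endothelial genes from -0.28 to 0.17, stellate genes from 0.14 to 0.33 and lymphocyte genes from -0.10 to 0.032. Between the times those of endothelial genes ran from -0.011 to 0.35, stellate genes from -0.15 to 0.00 and lymphocyte genes from -0.071 to 0.10.

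With the replicate number as a block 0 markers were called at 4 weeks and 0 after Cre, and over all genes 2 and 5. Pdgfrb was then at 0.28 (adjusted p = 0.0871), Hgf at 0.44 (adjusted p = 0.0919) and Clec4g at 0.55 (adjusted p = 0.13). Over all genes, deviations of arrays with the same number correlated between -0.07 and 0.11. The 2 arrays of a Cre group deviate by equal amounts in opposite directions, so few of these values are independent. Of the 40 markers, replicate 2 read higher for 33 at 2 weeks and 31 at 4 weeks, and lower for 6 each. Whether the numbers stand for a shared batch or order was not tested. Among all genes 276 were called at 2 weeks in the fit of those groups alone, as against 997.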
